A study of Homo sapiens with 6 samples.

Results

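Semaphorins are secreted or membrane-bound guidance proteins, first known from axon steering, and plexins are the large transmembrane receptors that read them. Neuropilins are co-receptors that hold secreted class 3 semaphorins for type A plexins and also bind vascular endothelial growth factors. Binding changes the cytoskeleton and adhesion of the receiving cell, and in carcinoma the family is known for effects on migration, invasion and vessel growth. The RNA of this family was compared in MDA-MB-231 cells kept in the RAGE inhibitor Azeliragon or in its vehicle DMSO. Members were taken by gene name, as every semaphorin of classes 3 to 7, every plexin of types A to D, and NRP1 and NRP2. They comprised 31 of the 58733 entries used from the count table, with 20 semaphorins, 9 plexins and 2 neuropilins, and 27 of the 31 had enough reads to be tested.

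MDA-MB-231 is an established human line of mesenchymal character from a triple-negative breast carcinoma. Polyadenylated RNA was sequenced from 3 libraries of cells kept for 72 h with Azeliragon at 2 µM, a drug that blocks the receptor for advanced glycation end products (RAGE), and from 3 libraries of cells kept for 72 h in DMSO. No genotype differed between the groups, and all 6 libraries come from the 1 line. The libraries are lettered a, b and c in each group, and the labels do not say whether they came from separate cultures, so a p-value here reflects the spread among 3 libraries of a group, and that spread may be technical.

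The deposited counts summed to between 41455979 and 44313584 reads per library. The markers of the line were in place, with CD44 at 574 to 611 CPM (reads over the library total, scaled by edgeR's TMM factors and set to a common depth) over the 6 libraries, and CDH1 at 1 read in the Azeliragon libraries and 0 reads in the DMSO libraries. Of 5 endothelial markers, KDR rose and the others lay under 1 CPM in every library. The summed level of the endothelial list was 5.95 to 6.29 CPM with Azeliragon and 3.15 to 4.49 CPM in DMSO. Leukocyte and neuron lists summed to at most 0.348 CPM in any library. PDGFRB and COL1A1 of the 5 fibroblast markers fell, PDGFRA had 0 reads in all libraries, and the list summed to 10.6 to 12.7 CPM with Azeliragon and 17.8 to 20.4 CPM in DMSO. The part of these lists in the results below was not tested.

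One library stood apart. DMSO a lay at -0.93 on the first principal component, where the Azeliragon libraries lay between 13.1 and 16.5 and DMSO b and c at -19.9 and -24.1. It carried more reads from long transcripts (Spearman correlation across genes of its deviation with transcript length 0.289, against -0.182 in DMSO b and -0.334 in DMSO c). Azeliragon a, b and c lay at 0.154, 0.00386 and 0.192, so without DMSO a the remaining DMSO libraries lie below all Azeliragon libraries on this measure. With all 6 libraries, the log2 fold change of Azeliragon over DMSO correlated with transcript length at 0.158 over 16068 genes (Spearman). Over the 27 tested members the value was 0.316. The family has long transcripts, with a median of 8062 exon bases over the tested members against 4381 over all genes tested. DMSO a was the highest DMSO library for 23 of the 27 members and for all 11 plexins and neuropilins, where it was the highest for 40.2% of all genes tested. Results of members are therefore given below with and without DMSO a where the 2 differ in call or direction. For the genes that act with them, the number that passed without DMSO a is given.

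The family was not uniformly shifted by Azeliragon. By edgeR's quasi-likelihood test with Benjamini-Hochberg adjustment over 16081 genes, 6 of the 27 tested members passed an adjusted p of 0.05. SEMA6B, SEMA3B, SEMA4B and NRP2 fell, PLXNA2 and SEMA3E rose, and 21 did not pass. The same rule called 6.27% of all genes tested, 2.75% higher and 3.53% lower, and 22.2% of the tested members. No test of that difference was made. The median log2 fold change (Azeliragon over DMSO) was -0.15 over the tested members and 0.00 over all genes tested. The 3 libraries of one group lay wholly above or below those of the other for 13 members, 5 higher and 8 lower with Azeliragon, where this held for 25.3% of all genes tested. Changes were moderate, and among the 6 members that passed the largest was the 1.67-fold fall of SEMA3B.

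**Figure D1:**
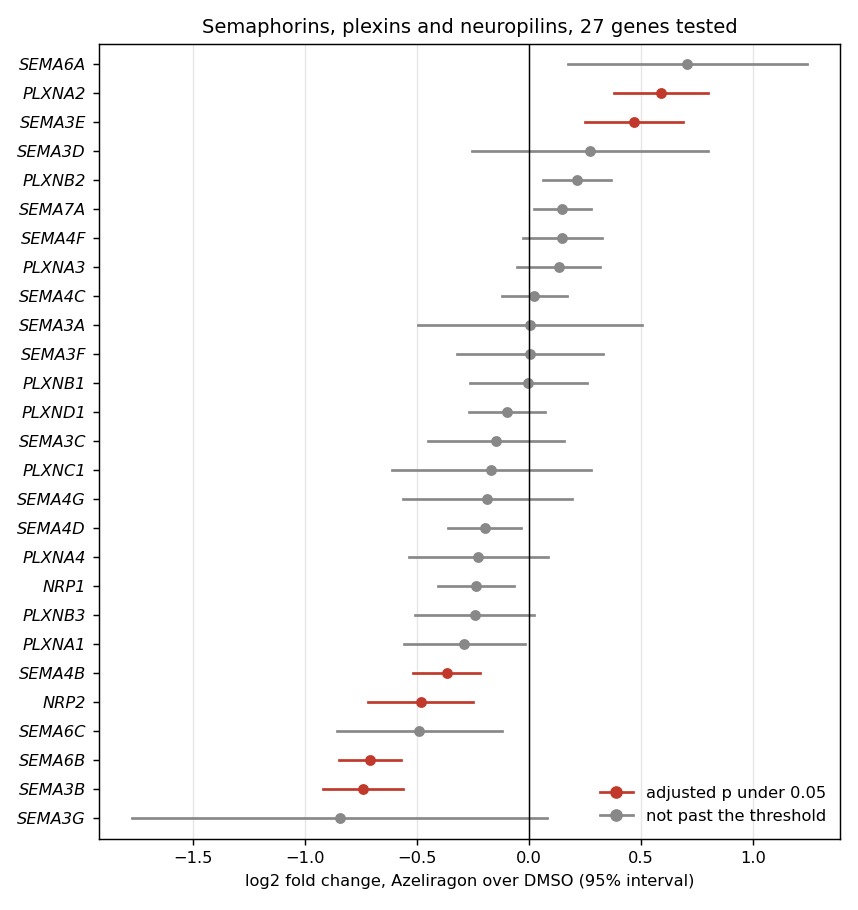
Log2 fold change of Azeliragon over DMSO for the 27 tested members (points) with 95% intervals from the edgeR fit (lines), ordered by value, 3 libraries per group; red marks adjusted p under 0.05. SEMA6B and SEMA3B lie at -0.71 and -0.74 with intervals that end below -0.5, PLXNA2 at 0.59, and the wide intervals at both ends belong to the weakly expressed SEMA6A and SEMA3G.

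SEMA6B, a transmembrane class 6 semaphorin that signals through type A plexins, was the most abundant semaphorin per length in DMSO and fell with Azeliragon. Its locus is chr19:4542593-4559808, minus strand (GRCh38, GENCODE 29), and no other annotated exon overlaps its exons. Its level was 143.7, 136 and 142.5 CPM in Azeliragon a, b and c, against 219.8, 227.6 and 243.4 CPM in DMSO a, b and c. All Azeliragon libraries were below all DMSO libraries, and DMSO a was the lowest of its group. The mean was 141 ± 4.2 CPM with Azeliragon and 230.3 ± 12.01 CPM in DMSO (SD, n = 3 each), a 1.64-fold fall (log2 fold change -0.71, SE 0.06; edgeR adjusted p = 4.99e-05). The call held without each library in turn (log2 fold change -0.74 to -0.67; edgeR adjusted p up to 0.00188).

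The remaining class 6 genes were weakly expressed. SEMA6A, a ligand of PLXNA2 and PLXNA4, had 120, 74 and 84 reads in Azeliragon a, b and c and 68, 50 and 57 in DMSO a, b and c. The groups did not overlap, yet the difference did not pass (edgeR adjusted p = 0.124; log2 fold change 0.71, with a 95% interval of 0.17 to 1.24), and without DMSO a it did (0.81; adjusted p = 0.0335 in the same test). With the length and GC trend also removed it did not pass (0.68; edgeR adjusted p = 0.0749). Antisense genes overlap 326 exon bases of SEMA6A, and the strand setting of the counting is not given in the sources used here, so its count is uncertain. SEMA6C had 128, 117 and 94 reads with Azeliragon and 182, 147 and 160 in DMSO, again without overlap and without passing (log2 fold change -0.49, 95% interval -0.86 to -0.12). SEMA6D had 0 reads in all 6 libraries. A count of 0 allows up to 3 reads, or 0.0664 to 0.0723 CPM per library, and this limit covers counting error only.

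SEMA7A, which is anchored to the membrane by a lipid and binds PLXNC1 and beta-1 integrins, stood next to SEMA6B in abundance but did not pass. It reached 166.9, 170.8 and 167 CPM in Azeliragon a, b and c and 157.8, 149.5 and 147.7 CPM in DMSO a, b and c, so the groups did not overlap although the difference was small (edgeR adjusted p = 0.179; log2 fold change 0.15, with a 95% interval of 0.02 to 0.28). Without DMSO a the call was made (log2 fold change 0.18; edgeR adjusted p = 0.00988). Levels of different genes are compared here as CPM per kb of annotated exon. On that scale SEMA7A averaged 44.3 and SEMA6B 31.9 with Azeliragon, whereas in DMSO SEMA7A averaged 39.9 and SEMA6B 52.2. The order of these 2 semaphorins was therefore exchanged between the groups: the ratio of SEMA7A to SEMA6B was 1.35, 1.46 and 1.36 in Azeliragon a, b and c and 0.834, 0.763 and 0.705 in DMSO a, b and c. This pair was picked out after its values were seen and the ratio has no test. SEMA6B held 25.5% to 26.8% of the summed semaphorin level per length with Azeliragon and 33.7% to 38.3% in DMSO, and SEMA7A held 35.9% to 37.2% with Azeliragon and 27.0% to 28.1% in DMSO.

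**Figure D2:**
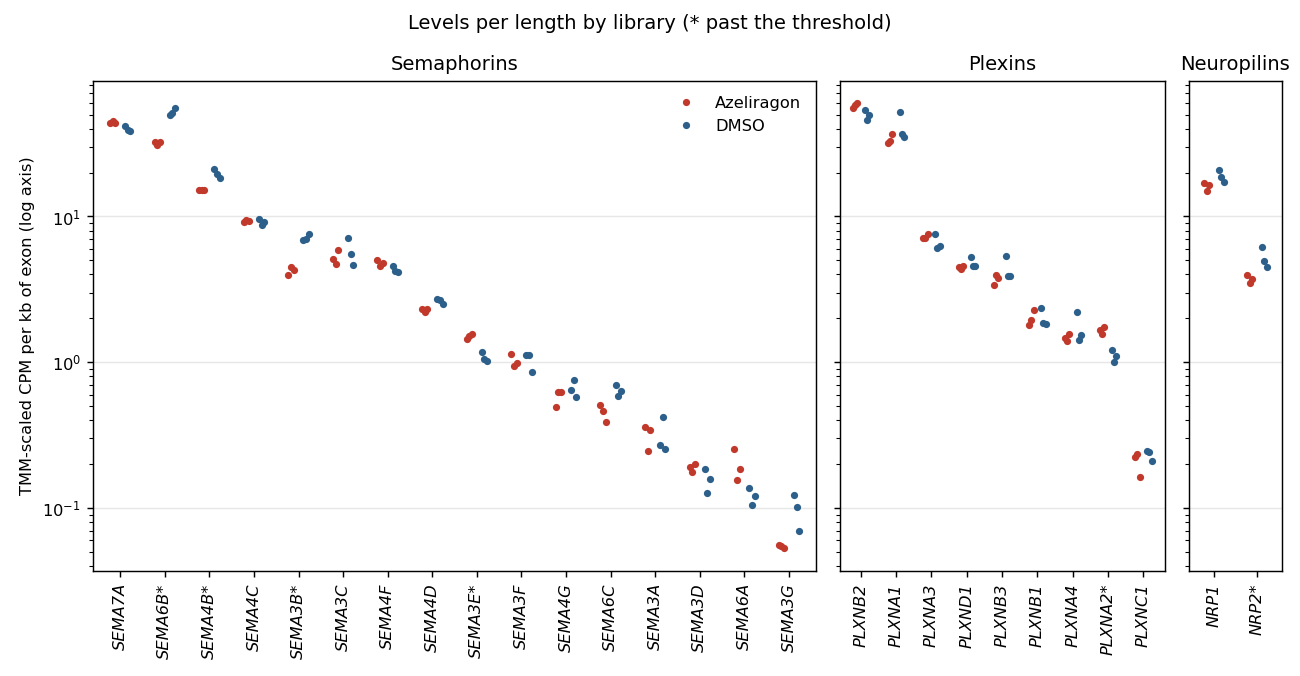
Level of each tested member in CPM per kb of exon on a log axis, one point per library, Azeliragon (red) left of DMSO (blue), genes ordered by mean level within semaphorins, plexins and neuropilins; asterisks mark adjusted p under 0.05. SEMA7A and SEMA6B change order between the groups, PLXNB2 and PLXNA1 stand above the other plexins, and the single high blue point of PLXNA1 is DMSO a.

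Among class 3 semaphorins, which are secreted and use neuropilins, SEMA3B fell and SEMA3E rose, while 5 members did not pass. SEMA3B, a ligand of neuropilin and type A plexin complexes that is widely described as a tumour suppressor, is at chr3:50267558-50277546 (plus strand). It stood at 23.1, 26.1 and 24.8 CPM in Azeliragon a, b and c, against 39.5, 40.4 and 43.8 CPM in DMSO a, b and c, with no overlap. The mean was 24.6 ± 1.5 CPM with Azeliragon and 41.2 ± 2.3 CPM in DMSO (SD, n = 3 each), a 1.67-fold fall (log2 fold change -0.74, SE 0.08; edgeR adjusted p = 0.00021). The call held without each library in turn (log2 fold change -0.78 to -0.69; edgeR adjusted p up to 0.00473). SEMA3F, whose gene lies 78.5 kb from SEMA3B on the same strand, did not pass (log2 fold change 0.00, 95% interval -0.32 to 0.33).

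SEMA3E is the class 3 member that can bind PLXND1 without a neuropilin. Its level was 12.1, 12.8 and 13.1 CPM in Azeliragon a, b and c and 9.92, 8.91 and 8.62 CPM in DMSO a, b and c. All Azeliragon libraries were above all DMSO libraries, a 1.38-fold rise (log2 fold change 0.47, SE 0.10; edgeR adjusted p = 0.0152). The call was lost without DMSO b or any 1 Azeliragon library (edgeR adjusted p up to 0.0851), where the log2 fold change stayed between 0.44 and 0.50. SEMA3E shares a stretch of 4.44 Mb on chromosome 7 with SEMA3A, SEMA3C and SEMA3D, and none of the other 3 passed. SEMA3C, a ligand of both neuropilins and the most abundant of the 4, had 31.8, 29.4 and 36.6 CPM in Azeliragon a, b and c and 44.8, 34.7 and 28.9 CPM in DMSO a, b and c. These groups overlapped, and the log2 fold change of -0.15 (95% interval -0.45 to 0.16) became 0.04 without DMSO a. SEMA3A, the classical NRP1 ligand, had 100 to 146 reads per library with Azeliragon and 102 to 171 in DMSO (log2 fold change 0.00, 95% interval -0.50 to 0.51, and -0.09 without DMSO a). SEMA3G, an NRP2 ligand, had 12, 12 and 11 reads in Azeliragon a, b and c and 28, 22 and 15 in DMSO a, b and c, and the difference did not pass (log2 fold change -0.85, 95% interval -1.77 to 0.08).

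SEMA4B fell while the other tested class 4 semaphorins, transmembrane ligands that mostly bind type B plexins, did not pass. SEMA4B reached 105.7, 107.1 and 106.6 CPM in Azeliragon a, b and c, against 148.5, 136 and 127.8 CPM in DMSO a, b and c, without overlap. This was a 1.29-fold fall (log2 fold change -0.37, SE 0.07; edgeR adjusted p = 0.00707), and the call was lost without Azeliragon a (adjusted p = 0.0554 in the same test) or Azeliragon c (0.0512), where the log2 fold changes were -0.36 and -0.37. SEMA4C, a PLXNB2 ligand, stood at 56.8, 58.6 and 57.4 CPM in Azeliragon a, b and c and 59.3, 54.2 and 56.5 CPM in DMSO a, b and c. The groups overlapped, and the 95% interval of the log2 fold change ran from -0.12 to 0.17. SEMA4D, the PLXNB1 ligand, lay at 31.3 to 33.04 CPM with Azeliragon and 35.5 to 38.4 CPM in DMSO (edgeR adjusted p = 0.151; log2 fold change -0.20, with a 95% interval of -0.36 to -0.04), without overlap and without passing. SEMA4F and SEMA4G did not pass (log2 fold changes 0.15 and -0.19). Genes on the opposite strand overlap 1441 of the 5253 exon bases of SEMA4G, so its count is uncertain. SEMA4A, at 0 to 6 reads with Azeliragon and 1 to 13 in DMSO, fell under the filter on low counts, as did both class 5 genes, with 1 read for SEMA5A and 0 reads for SEMA5B over all libraries.

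**Figure D3:**
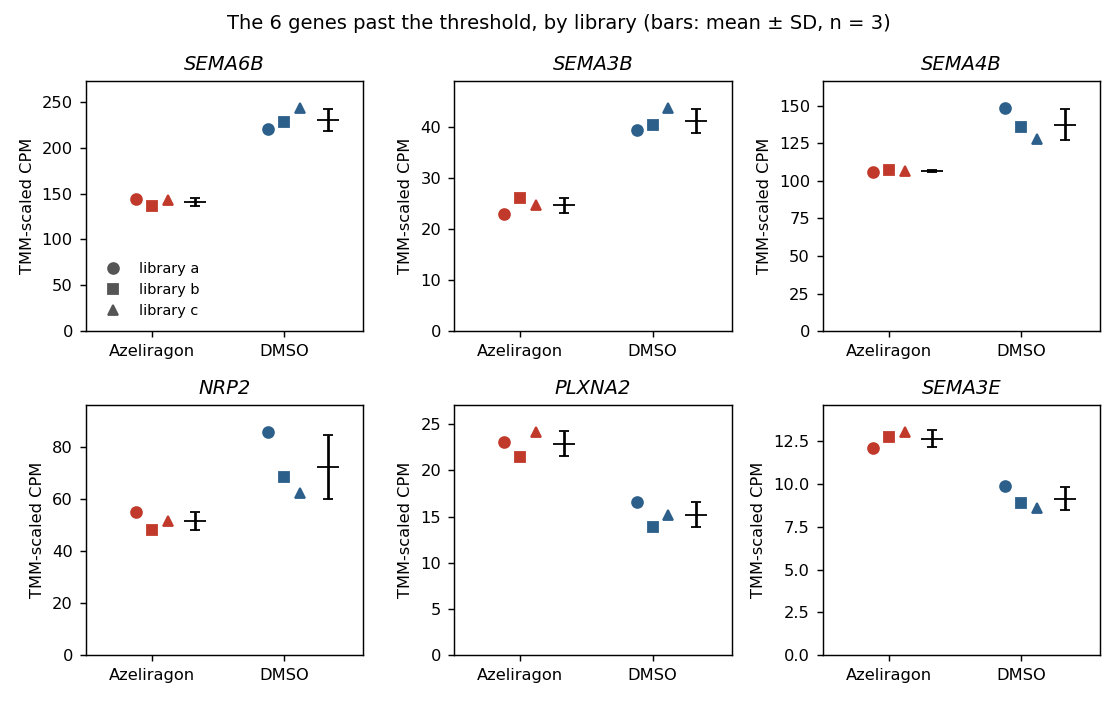
Level in CPM of the 6 members past the threshold in each library (circle, square and triangle for libraries a, b and c), Azeliragon (red) left of DMSO (blue), with the mean and SD of 3 libraries in black; axes start at 0. The groups do not overlap in any panel, and NRP2 has the widest DMSO group, at 62.4 to 86.1 CPM.

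The summed semaphorin level per length was 121.7, 120.8 and 122.4 CPM per kb in Azeliragon a, b and c, against 147.8, 142.9 and 144.1 CPM per kb in DMSO a, b and c. SEMA6B, SEMA7A and SEMA4B carried most of this sum. The corresponding plexin sum was 107.6, 111.7 and 118.1 CPM per kb in Azeliragon a, b and c and 130.3, 101.6 and 104.2 CPM per kb in DMSO a, b and c, so the groups overlapped through DMSO a alone. These sums are descriptions with no test.

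Both neuropilins were lower with Azeliragon, and NRP2 passed. NRP2, at chr2:205681990-205798133 (plus strand), is the co-receptor for SEMA3F and VEGFC. It had 55.1, 48.3 and 51.8 CPM in Azeliragon a, b and c, against 86.1, 68.5 and 62.4 CPM in DMSO a, b and c, and DMSO a was well above the rest. The fall was 1.40-fold (log2 fold change -0.49, SE 0.11; edgeR adjusted p = 0.0185). Without DMSO a it was smaller but still passed (log2 fold change -0.34; edgeR adjusted p = 0.000606), while without DMSO b or any 1 Azeliragon library the call was lost (edgeR adjusted p up to 0.113) at log2 fold changes of -0.53 to -0.44. NRP1, which binds SEMA3A and VEGFA, stood at 195.4, 172.7 and 188.5 CPM in Azeliragon a, b and c and 240.2, 216.2 and 199.5 CPM in DMSO a, b and c. The groups did not overlap, but the difference did not pass (edgeR adjusted p = 0.105; log2 fold change -0.24, with a 95% interval of -0.41 to -0.07). Without DMSO a or DMSO c it did pass (log2 fold changes -0.16 and -0.30; edgeR adjusted p = 0.0339 and 0.0323). An antisense gene overlaps exons of each neuropilin, over 561 bases of NRP1 and 147 bases of NRP2.

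Of 9 plexins, PLXNA2 rose and 8 did not pass. PLXNA2, the receptor of SEMA6A and, with neuropilins, of class 3 semaphorins, is at chr1:208022242-208244320 (minus strand). Its level was 23.0, 21.5 and 24.2 CPM in Azeliragon a, b and c, against 16.6, 13.8 and 15.2 CPM in DMSO a, b and c, with no overlap. The mean was 22.9 ± 1.4 CPM with Azeliragon and 15.2 ± 1.4 CPM in DMSO (SD, n = 3 each), a 1.505-fold rise (log2 fold change 0.59, SE 0.10; edgeR adjusted p = 0.00309). The call held without each library in turn (log2 fold change 0.52 to 0.66; edgeR adjusted p up to 0.0259). With each library's trend on transcript length and GC content removed, the log2 fold change was 0.48 (adjusted p = 0.00119, edgeR).

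PLXNB2, the receptor of SEMA4C, was the most abundant plexin per length (57.7 CPM per kb with Azeliragon and 49.7 in DMSO). PLXNA2 was among the scarcer plexins, at 1.66 CPM per kb with Azeliragon and 1.105 in DMSO. PLXNB2 reached 402.5, 420.4 and 433.8 CPM in Azeliragon a, b and c and 390.7, 332.5 and 358.8 CPM in DMSO a, b and c, without overlap. It did not pass with all libraries (edgeR adjusted p = 0.0982; log2 fold change 0.22, with a 95% interval of 0.06 to 0.37) and did without DMSO a (0.28; adjusted p = 0.000197 in the same test). PLXNA1, which pairs with NRP1 to receive SEMA3A, had 349.3, 362.6 and 401.6 CPM in Azeliragon a, b and c and 571.8, 401.5 and 386.8 CPM in DMSO a, b and c. One library, DMSO a, stood far above the other 5, and the log2 fold change of -0.29 (95% interval -0.56 to -0.02) did not pass in the edgeR test (adjusted p = 0.214) and was -0.09 without it (adjusted p = 0.268). Without DMSO a and with the length and GC trend removed, PLXNA1 passed as lower (-0.20; edgeR adjusted p = 0.00266), as it did with all libraries and no filter on low counts (-0.28; edgeR adjusted p = 0.0017). The share of the summed plexin level held by PLXNA1 was 29.6% to 31.1% with Azeliragon and 33.9% to 40.1% in DMSO, and that of PLXNB2 was 50.6% to 51.8% with Azeliragon and 41.3% to 47.5% in DMSO.

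DMSO a was the highest DMSO library for the remaining plexins too. PLXNA4, a receptor of SEMA6 ligands, had 24.0, 23.1 and 25.5 CPM in Azeliragon a, b and c and 36.4, 23.3 and 25.0 CPM in DMSO a, b and c, and its log2 fold change of -0.23 became 0.00 without DMSO a. Without DMSO a and with the length and GC trend removed it was -0.23 and passed (edgeR adjusted p = 0.0325). PLXNA3, which is used mainly with NRP2 for SEMA3F, lay at 83.9, 83.9 and 88.2 CPM in Azeliragon a, b and c and 89.1, 71.4 and 73.2 CPM in DMSO a, b and c. It did not pass (log2 fold change 0.13, 95% interval -0.05 to 0.32), passed without DMSO a (0.24; edgeR adjusted p = 0.00304), and did not pass without DMSO a once the length and GC trend was removed (0.08; edgeR adjusted p = 0.294). PLXND1, the SEMA3E receptor, had 43.8, 42.8 and 44.6 CPM in Azeliragon a, b and c and 51.2, 44.6 and 44.4 CPM in DMSO a, b and c (log2 fold change -0.10, 95% interval -0.27 to 0.07). PLXNB1, PLXNB3 and PLXNC1 did not pass (log2 fold changes 0.00, -0.24 and -0.17), and the value of PLXNB1 was 0.13 without DMSO a. PLXNC1, the plexin of SEMA7A, was the scarcest at 0.207 CPM per kb with Azeliragon and 0.233 in DMSO. Genes on the opposite strand overlap 399 of its exon bases. PLXNB3 shares 1432 exon bases with SRPK3 on the same strand, so its count is uncertain.

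**Figure D4:**
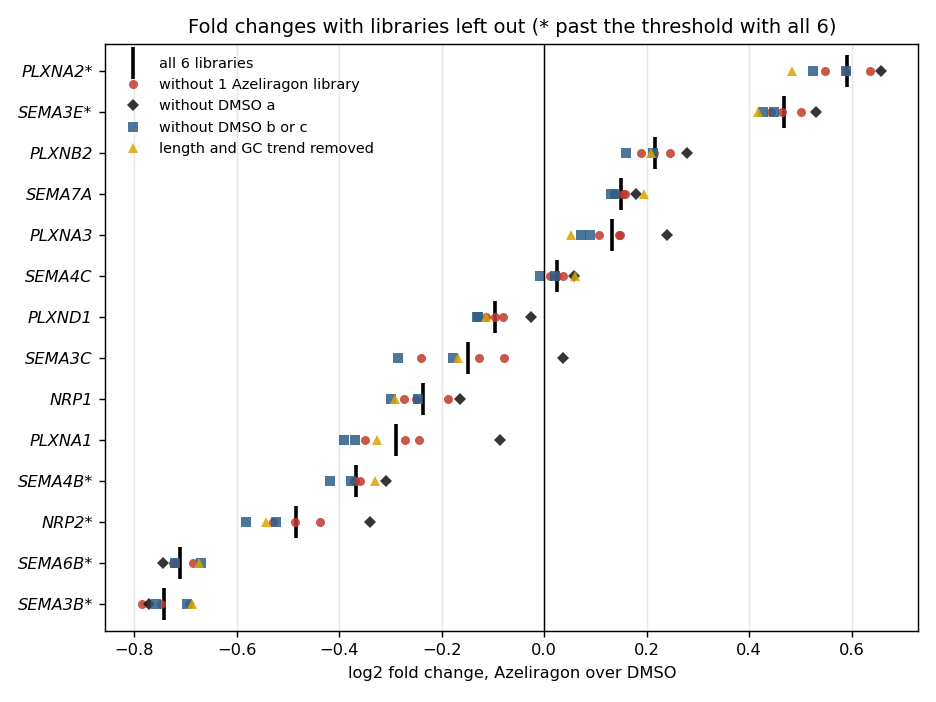
Log2 fold change of Azeliragon over DMSO for the 6 members past the threshold (asterisks) and the 8 most abundant members per length that did not pass, with all 6 libraries (black bars), with 1 library left out (circles, squares and diamonds) and with the length and GC trend removed (triangles). SEMA3B and SEMA6B keep to -0.78 to -0.67 in every setting drawn, while leaving out DMSO a (black diamonds) brings PLXNA1 to -0.09 and SEMA3C to 0.04.

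Without DMSO a, 11 of the 27 members tested with all libraries passed, 6 higher and 5 lower. In those 5 libraries 23.7% of all genes tested passed. SEMA4A also entered that fit and did not pass (edgeR adjusted p = 0.122). With the length and GC trend removed and all 6 libraries kept, 12 members passed, 4 higher (PLXNA2, SEMA3E, PLXNB2 and SEMA7A) and 8 lower (SEMA6B, SEMA3B, SEMA4B, SEMA4D, NRP1, NRP2, PLXNA1 and PLXNA4), where 10.6% of all genes tested did. SEMA6B, SEMA3B and PLXNA2 passed in every one of the 16 other settings, and the signs of all 6 called members were the same in all 16. The same 6 genes passed with RLE factors, library totals, a stricter filter, DESeq2, limma-voom and the replicate letter as a block, where 6.31%, 5.8%, 8.06%, 8.84%, 6.39% and 5.65% of all genes tested passed, in that order. With no filter 9 members passed (5.78% of all genes tested), with the trend and DMSO a both removed 12 (22.9%), and with the trend removed under the block 11 (9.76%). Leaving out Azeliragon a, b or c left 3, 4 and 3 members past the threshold (2.68%, 3.01% and 2.7% of all genes), DMSO b 4 (2.86%) and DMSO c 7 (4.94%).

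Promoter sequence is given for 3 of the genes that passed, because the title of the series names the repressor SNAIL, whose family binds the E-box CAGGTG. RefSeq windows (GRCh38.p14) were matched by symbol for 27 of the 31 members, 48 windows in all, and the 250 bases before each start were searched on both strands. Of the genes that passed, SEMA6B had no window and was not searched. The search for any E-box used CANNTG, of which CAGGTG is one form. SEMA3E and SEMA4B, which also passed, had 2 and 3 windows that were searched and are not shown. Of these, 1 window of SEMA3E and 2 of SEMA4B held an E-box, and 0 held CAGGTG. The AP-1 motif was searched as TGANTCA. For TEAD factors the letters were GGAATG. The HIF core was searched as ACGTG, which can lie within an E-box and be matched there on both strands. In the sequences below, all E-boxes are in capitals. NRP2 and PLXNA2 have 1 window each, at chr2:205682251-205682500 (plus strand) and chr1:208244385-208244634 (minus strand). SEMA3B has 5, of which the one at chr3:50267402-50267651 (plus strand) is shown because it holds the only CAGGTG among the 12 windows of the called genes, read as CACCTG 236 bases before the start.
SEMA3B: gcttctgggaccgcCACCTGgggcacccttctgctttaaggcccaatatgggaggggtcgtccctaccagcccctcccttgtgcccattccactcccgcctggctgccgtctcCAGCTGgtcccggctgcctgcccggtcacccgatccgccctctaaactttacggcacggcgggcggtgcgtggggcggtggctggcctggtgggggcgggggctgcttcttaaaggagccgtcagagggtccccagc
NRP2: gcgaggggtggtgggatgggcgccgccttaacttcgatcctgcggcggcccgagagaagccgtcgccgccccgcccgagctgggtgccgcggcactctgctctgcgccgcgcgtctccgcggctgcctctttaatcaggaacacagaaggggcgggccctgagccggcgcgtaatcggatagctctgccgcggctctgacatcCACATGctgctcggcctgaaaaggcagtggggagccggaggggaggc
PLXNA2: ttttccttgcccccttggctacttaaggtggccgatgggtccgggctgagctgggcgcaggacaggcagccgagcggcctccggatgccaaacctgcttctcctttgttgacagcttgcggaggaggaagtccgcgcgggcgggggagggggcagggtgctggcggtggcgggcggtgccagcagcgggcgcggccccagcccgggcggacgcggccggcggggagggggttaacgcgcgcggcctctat

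CAGGTG was found in 6 of the 48 member windows (12.5%), where 17.5% of 35116 windows of all genes held it, and any E-box in 25 (52.1%), where 61.8% did. TGANTCA was in 1 window (2.08%, against 6.57% of all windows), GGAATG in 6 (12.5%, against 11.9% of all windows) and ACGTG in 9 (18.8%, against 18.5%). The GC content of the 3 windows shown was 68.8% for SEMA3B, 70.0% for NRP2 and 72.4% for PLXNA2, where the median of all windows was 58.0%. A match is a description of letters in these windows and shows no binding, and the start used in these cells was not measured.

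Genes that act with semaphorins and plexins were described from 5 lists of 84 genes in all, of which 71 could be tested. KDR and CSPG4 rose, SH3BP1, PLXDC1, LIMK1, MMP14 and DPYSL2 fell, and 64 did not pass, so that 9.86% of the tested partners passed, against 6.27% of all genes. Without DMSO a 20 partners passed as higher and 10 as lower, where 23.7% of all genes passed. The median log2 fold change was 0.03. LIMK1, the kinase that phosphorylates cofilin downstream of plexins, had 133.6, 141.7 and 142.8 CPM in Azeliragon a, b and c, against 198.5, 193.1 and 204.6 CPM in DMSO a, b and c. That 1.43-fold fall (log2 fold change -0.51, SE 0.06; edgeR adjusted p = 0.00037) held without each library in turn. MMP14, a membrane protease known to shed SEMA4D, had 1636, 1641 and 1636 CPM in Azeliragon a, b and c and 2073, 2123 and 2121 CPM in DMSO a, b and c, a 1.28-fold fall without overlap (edgeR adjusted p = 0.00181) that also held without each library.

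SH3BP1, a Rac GTPase-activating protein known to bind plexins, had 92, 99 and 109 reads in Azeliragon a, b and c, against 231, 241 and 332 in DMSO a, b and c. Its 2.61-fold fall (log2 fold change -1.39, SE 0.18; edgeR adjusted p = 0.000796) held without each library, but 1745 of its exon bases overlap a gene on the same strand, so the count is uncertain. PLXDC1 carries a plexin-like domain and is no plexin. It fell 2.46-fold on few reads, 17 to 23 with Azeliragon and 35 to 57 in DMSO (edgeR adjusted p = 0.0435). DPYSL2, the semaphorin response mediator CRMP2, fell 1.22-fold (edgeR adjusted p = 0.0149). KDR, the VEGFA receptor that complexes with NRP1, had 5.347, 5.202 and 5.446 CPM in Azeliragon a, b and c and 3.96, 3.38 and 2.43 CPM in DMSO a, b and c, a 1.63-fold rise (edgeR adjusted p = 0.0324). CSPG4 rose 1.47-fold (edgeR adjusted p = 0.0341). Of these 7, KDR and CSPG4 kept their call in 1 of the 6 sets of 5 libraries, and PLXDC1 and DPYSL2 in 2. Genes on the opposite strand overlap 664 exon bases of PLXDC1, 563 of CSPG4 and 71 of DPYSL2, so their counts are uncertain too.

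Of the partners that did not pass, the 4 with the highest CPM (not per length) were CFL1, TLN1, MICAL2 and RHOA. RHOA, a GTPase downstream of plexins, averaged 759 ± 4.5 CPM with Azeliragon and 780.5 ± 49.6 CPM in DMSO (SD, n = 3 each, as for the next 3 genes). CFL1, which encodes cofilin, averaged 1426 ± 26 CPM with Azeliragon and 1595 ± 189 CPM in DMSO. The integrin adaptor talin, from TLN1, averaged 1033 ± 36 CPM with Azeliragon and 864 ± 115 CPM in DMSO, without overlap. MICAL2, an oxidoreductase that acts on actin, averaged 938.5 ± 39.5 CPM with Azeliragon and 874 ± 174 CPM in DMSO. Their log2 fold changes were -0.04, -0.16, 0.26 and 0.10. DMSO a was the highest DMSO library for TLN1 and MICAL2, at 996 and 1075 CPM. DMSO b and c lay at 805 and 791 CPM for TLN1 and at 770 and 778 CPM for MICAL2. VEGFA, a growth factor that binds NRP1, lay at 162.5 to 170.9 CPM with Azeliragon and 180.1 to 196.3 CPM in DMSO and did not pass. VEGFC, which binds NRP2, lay at 43.8 to 47.4 CPM with Azeliragon and 39.0 to 46.2 CPM in DMSO and did not pass. FURIN, which cleaves class 3 semaphorins, lay at 192 to 195.4 CPM with Azeliragon and 197.3 to 227 CPM in DMSO and did not pass.

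**Figure D5:**
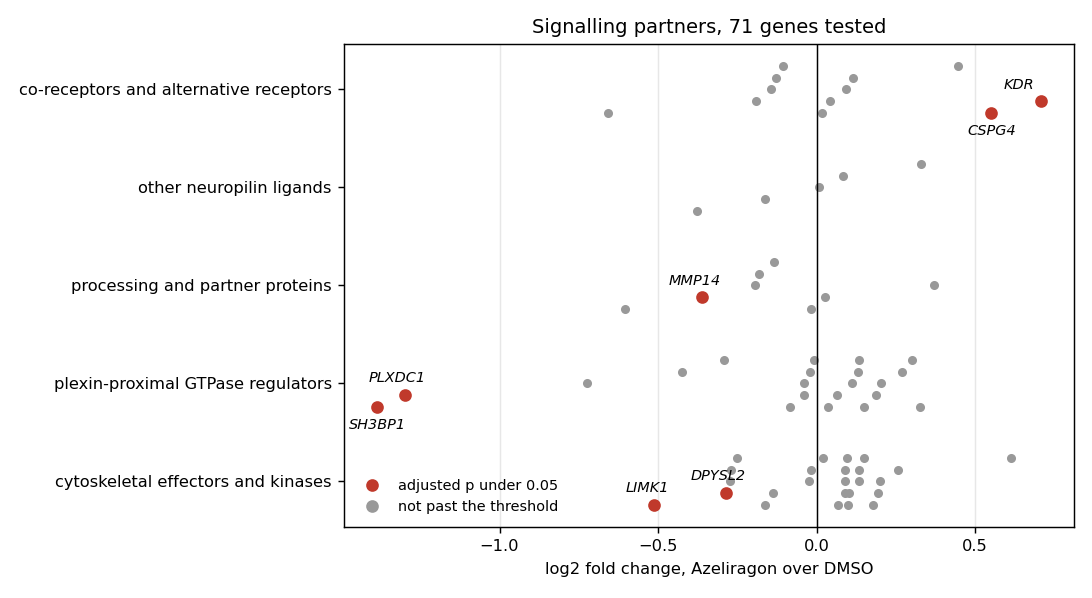
Log2 fold change of Azeliragon over DMSO for the 71 tested signalling partners in 5 lists, one point per gene, spread vertically within a list for legibility; red points with names passed the adjusted p of 0.05. Most points lie between -0.5 and 0.5, and SH3BP1 and PLXDC1 stand apart on the left at -1.39 and -1.30.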

How the data were processed

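RNA of 6 libraries, 3 per group, was measured by sequencing of polyadenylated RNA. The authors deposited raw counts per gene. Per the submitters' processing notes, STAR 2.6.1d, featureCounts 1.5.0-p3, limma and GRCh38 are listed with no role stated. How strand and multi-mapping reads were handled is not given in the sources used here, nor is the annotation. Of 58735 entries, 58722 carried GENCODE 29 names, which gave positions and exon lengths, and 2 whose names had become date serials held no counts and were left out. Genes were kept with filterByExpr, scaled by TMM and compared with glmQLFit and glmQLFTest (edgeR 4.0.16, R 4.3.3); adjusted p is Benjamini-Hochberg over all genes tested. CPM is the count over the TMM-scaled library total. All 27 tested members passed the count minimum in all 6 libraries. Within groups every pair of libraries differed beyond sampling noise (chi-square per degree of freedom at least 4.39), so none was counted as a copy.

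The members and lists were chosen with earlier results of these data known. Each member past the threshold and the 8 most abundant others per length are given by library; of the partners, those called and the 4 most abundant others. Other genes given values were named after those were seen. The main edgeR fit was also run on simulated counts, and the outcome is not reported here. Alternatives to this fit were RLE factors, library totals, the replicate letter as a block, limma-voom 3.58.1, DESeq2 1.42.0, all genes unfiltered, and only genes with 1 CPM in 3 libraries whose counts averaged at least 50. Each library was also omitted in turn, and length and GC trends (mgcv) were removed alone, with the block or without DMSO a. Python 3.11.15 and matplotlib 3.10.9 were used.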

Additional observations from a re-analysis of the deposited data

How the results depend on the processing

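Of the members, 2 rose and 4 fell with RLE factors, library totals, the stricter filter, DESeq2, limma-voom and the replicate block, in each case the same 6 genes. With no filter 3 rose and 6 fell. With the length and GC trend removed 4 rose and 8 fell, with DMSO a also left out 4 and 8, and with the trend removed together with the block 4 and 7. With 1 library left out, 1 to 6 members rose and 2 to 5 fell. Without Azeliragon a or Azeliragon c 1 rose and 2 fell, without Azeliragon b or DMSO b 1 and 3, without DMSO c 2 and 5, and without DMSO a 6 and 5. SEMA3C (-0.286 to 0.036) and SEMA4C (-0.009 to 0.058) changed sign with 1 library left out, SEMA3C without DMSO a and SEMA4C without DMSO b. So did PLXNB1 (-0.101 to 0.127), SEMA3A (-0.133 to 0.270) and SEMA3F (-0.113 to 0.066), and none of these 5 was called in any setting.

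Of the partners, 2 rose and 5 fell, where 6.27% of all genes tested passed. With library totals 1 rose and 5 fell (5.8% of all genes tested), with DESeq2 5 and 7 (8.84%), and with no filter 9 and 8 (5.78%). RLE factors gave 3 higher and 5 lower (6.31%), limma-voom 3 and 4 (6.39%), and the stricter filter 2 and 4 (8.06%). With the trend removed 6 rose and 9 fell (10.6%), and with DMSO a also left out 15 and 14 (22.9%). With the trend removed together with the block 6 rose and 9 fell (9.76%). With 1 library left out 0 to 20 rose and 3 to 10 fell, where 2.68% to 23.7% of all genes tested passed. The cause of these differences was not tested. The labels do not say whether libraries of the same letter were handled together. Deviations from the group means correlated at 0.0341, 0.0349 and -0.0977 between Azeliragon and DMSO libraries a, b and c. Between libraries of unlike letters they correlated at -0.143 to 0.129. With 3 libraries per group these values cannot tell whether the letters mark pairs. Under the block 2 members rose and 4 fell. Of the partners 3 rose and 4 fell under the block (5.65% of all genes tested), and PLXDC1 lost its call. Scaling by the longest transcript in place of all exons, chosen after seeing the data, gave a SEMA7A to SEMA6B ratio of 1.41 with Azeliragon and 0.78 in DMSO. The 4 members under the filter on low counts were not tested in the main fit. SEMA4A entered the edgeR fits with no filter and without DMSO a, among others, and did not pass. Its log2 fold changes there were -1.27 and -1.80 (edgeR adjusted p = 0.593 and 0.122). SEMA5A entered the fit with no filter and did not pass (edgeR adjusted p = 0.705).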
